A study of Mus musculus with 8 samples.

Results

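Genes that mark macrophages and monocytes, 10 in all, were followed across the 8 arrays of a study of CD4+ T cells. They were Cd209b, Folr2, Cd14, Csf1r, C1qa, C1qb, C1qc, Marco, Chil3 and Lyz2, and they were taken by the gene name that the array design gives each probe. The 10 genes had 15 probes among 56587 with a value, and 14 of the 15 were among the 32039 probes that were bright enough to be tested. Every one of the 10 genes had at least 1 tested probe, among 21519 genes with one.

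The study asked how interleukin-6 (IL-6) acts on helper T cells that are primed in mice with a tumour. All animals were C57BL/6 mice. Each had received OVA-specific TCR transgenic CD4+ T cells, where OVA is ovalbumin, followed by dendritic cells pulsed with the OVA peptide. The CD4+ cells were collected from the mice on day 4. The 4 groups had 2 arrays each. Tumour-bearing mice with an antibody against the IL-6 receptor (TB anti-IL-6R) were on replicates 7 and 8, and tumour-bearing mice with a control antibody (TB control) on replicates 3 and 4. Tumour-free mice with the anti-IL-6R antibody (TF anti-IL-6R) were on replicates 5 and 6, and tumour-free mice with the control antibody (TF control) on replicates 1 and 2. The tumour was MCA205-OVA, a transplanted fibrosarcoma line that expresses OVA, so it is 1 line and not a tumour that arose in the host. The labels describe 2 independent experiments per condition but do not say which array belongs to which, nor how many mice were pooled, the purity of the isolates or the doses. The p-values therefore measure only the spread between these samples.

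Macrophages of the spleen and lymph node engulf blood-borne particles, dying cells and red cells, and subsets of them line the marginal zone and the lymph node sinuses. They depend on the receptor for colony stimulating factor 1, and many of them make complement C1q, which tags debris and immune complexes for uptake. Monocytes are their circulating relatives and share the co-receptor CD14 and lysozyme. None of these genes is a usual mark of CD4+ T cells.

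All values below are log2 signals with the array's 75th percentile subtracted, so a value of 0 is the array's own 75th percentile, and a difference of 1 is a 2-fold change. The values of a group stand in the order of its replicate numbers. The share of probes well above background was 53.1% to 59.8% per array, and the lowest signal called so was 24.2 to 36.3. All 12 CD4 T cell markers were well above background on all 8 arrays, and their signals summed to 9.55 to 9.91 on this log2 scale. The 23 measured genes of the resident and marginal zone macrophage list summed to 7.16 to 8.07. Since the RNA came from bulk isolates, fewer cells of a type and less RNA per cell cannot be told apart. Arrays of the control antibody lay in slide column 1 and arrays of anti-IL-6R in column 2, with the TF arrays in rows 1 and 2 and the TB arrays in rows 3 and 4, so host and antibody cannot be told apart from slide position.

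**Figure D1:**
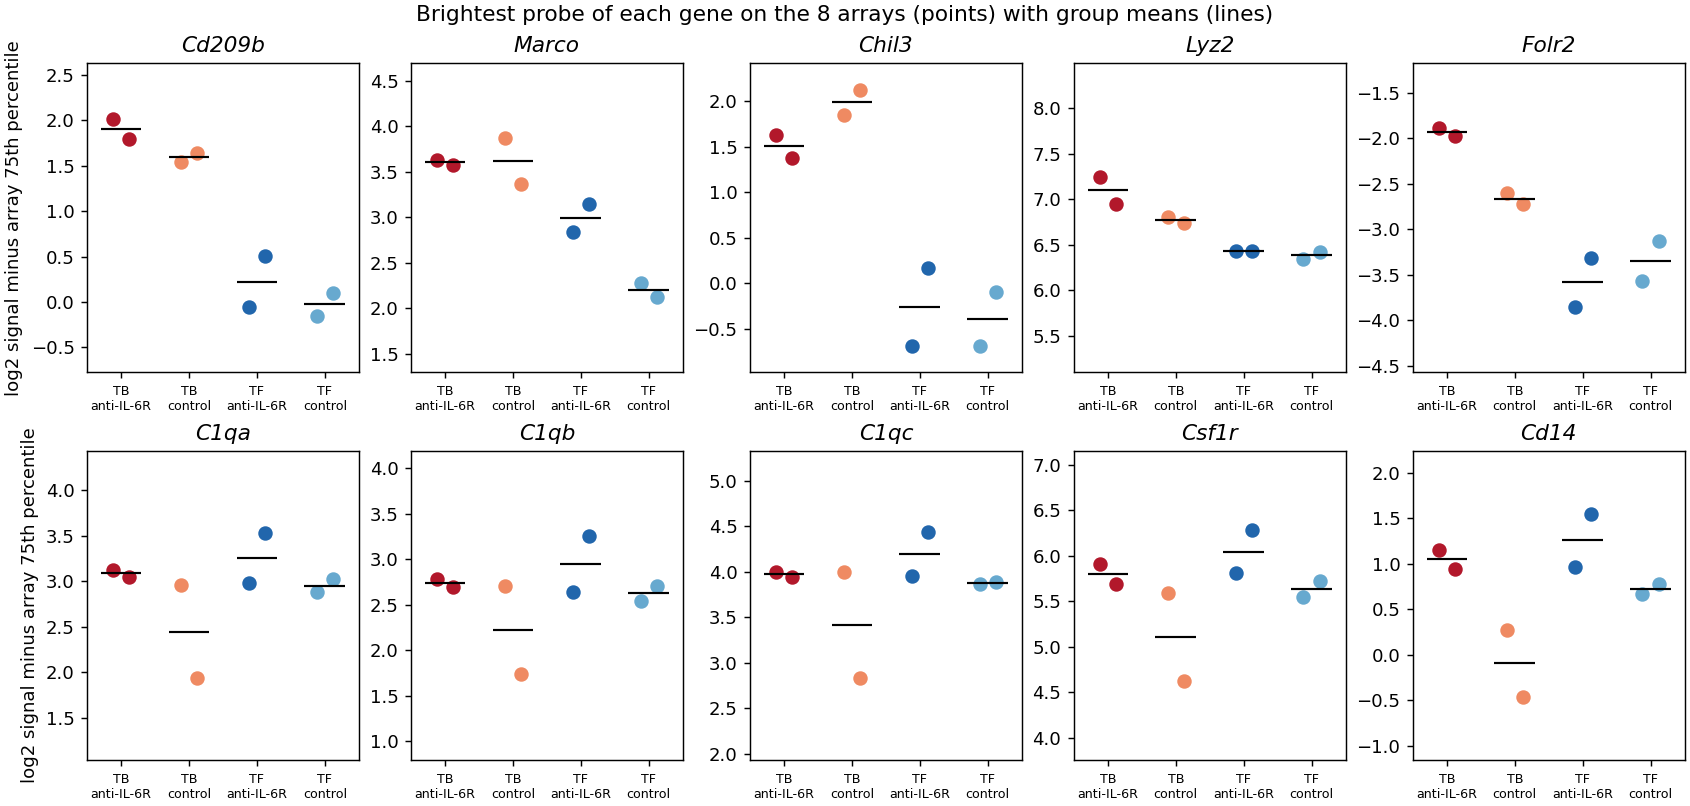
Level of the brightest probe of each of the 10 genes on the 8 arrays (y axis, log2 signal minus the array's 75th percentile), with the 4 groups along the x axis, 1 point per array and a line at the group mean; every panel spans the same height. In the upper row all 4 TB arrays lie above all 4 TF arrays. In the lower row the lowest point of each gene is TB control replicate 4 and the highest is TF anti-IL-6R replicate 6.

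The probes decide what each value reads. A few of them, 5 in all, are printed here, for genes in each of the 2 patterns described further on, with the longest run of letters that they share with a probe of any other gene on the array in capitals. Coordinates are those of the deposited array files (mm9), where all 5 lie on the minus strand. Those of the C1q chains are C1qa at chr4:136452409-136452468 and C1qb at chr4:136436578-136436637. The others are the second Cd209b probe at chr8:3921355-3921414, the only Folr2 probe at chr7:108988771-108988830 and the second Lyz2 probe at chr10:116719175-116719234.
C1qa: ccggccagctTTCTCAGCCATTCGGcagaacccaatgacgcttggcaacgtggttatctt
C1qb: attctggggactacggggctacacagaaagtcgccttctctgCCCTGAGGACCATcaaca
Cd209b: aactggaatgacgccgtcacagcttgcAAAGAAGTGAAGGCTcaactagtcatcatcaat
Folr2: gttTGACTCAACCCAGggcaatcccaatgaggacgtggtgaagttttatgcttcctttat
Lyz2: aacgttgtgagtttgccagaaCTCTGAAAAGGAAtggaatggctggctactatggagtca
The capital runs are 13 to 15 of 60 bases long, and over all 15 probes the longest shared run was 13 to 16 bases. The partner of the Lyz2 run was Ero1b and not its paralog Lyz1, and the partner of the Cd209b run was Spef2 and not another Cd209 gene. Only probes were compared with one another, so a run shared with the rest of a paralog's transcript would not be seen. Cross-hybridisation with paralogs was thus not tested. Exact runs do not measure hybridisation with mismatches.

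In TB control mice, 3 of the 10 genes were higher than in TF control mice and none was lower, where 3.41% of all tested probes were called higher and 1.89% lower. The balance of calls moved with single arrays, and 37.6% (without TF control replicate 1) to 80.4% (without TB control replicate 4) of the called probes were higher when 1 array was left out. The 3 genes were Cd209b, Marco and Chil3. The median difference of the 10 genes was -0.0073, beside 0.013 over all tested probes, because 5 genes lay above 0 and 5 below. Under anti-IL-6R, Cd209b was again higher in TB than in TF mice, alone among the 10 by its brightest probe, where 0.181% of all tested probes were called higher and 0.0281% lower. These 2 tumour comparisons use separate arrays, and each of the 10 genes had the same sign in both by its brightest probe, against 39.2% of all tested probes and 47.3% of the 1696 probes called in control mice. The 10 genes fell into 2 correlated sets, described further on, and were chosen with earlier results of these data known. They are thus not 10 independent observations to set beside these shares. The sign was less steady for some of the 10 genes. The second Csf1r probe gave -0.40 with the control antibody and 0.21 with anti-IL-6R, the C1q signs turned without TB control replicate 4 in the first comparison, and those of C1q and Cd14 turned without TF anti-IL-6R replicate 6 in the second.

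Cd209b encodes SIGNR1, a C-type lectin of marginal zone macrophages that binds polysaccharides on microbes. Its brightest probe stood at 2.01 and 1.79 in TB anti-IL-6R mice and at 1.54 and 1.64 in TB control mice, against -0.06 and 0.50 in TF anti-IL-6R mice and -0.16 and 0.10 in TF control mice. All 4 TB arrays were above all 4 TF arrays, with a gap of 1.04 between them. The level was 3.06-fold higher in TB control than in TF control mice (log2 difference 1.62 ± 0.18 SE, adjusted p = 0.00409). It was 3.20-fold higher in TB anti-IL-6R than in TF anti-IL-6R mice (1.68 ± 0.18, adjusted p = 0.0178). The second probe gave 1.73 (adjusted p = 0.00525) and 1.55 (adjusted p = 0.0368) for the same comparisons. It was dim in TF mice, at -3.35 and -2.76 in TF control mice, though well above background on all 8 arrays. The sizes of its differences are thus less exact. Under anti-IL-6R the call of the first probe was lost without TB control replicate 3 or 4 or TB anti-IL-6R replicate 7, with an adjusted p of up to 0.0701 and a difference of 1.40 to 1.96 over all single arrays left out. It was also lost with no filter on dim probes (adjusted p = 0.0559) and with no intensity trend (adjusted p = 0.0772).

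Marco encodes a scavenger receptor of marginal zone and lymph node macrophages that takes up bacteria and particles. It stood at 3.64 and 3.57 in TB anti-IL-6R mice and at 3.87 and 3.37 in TB control mice, against 2.84 and 3.15 in TF anti-IL-6R mice and 2.27 and 2.12 in TF control mice. The TF anti-IL-6R arrays lay between the others, above both TF control arrays and below all TB arrays. Marco was 2.69-fold higher in TB control than in TF control mice (1.43 ± 0.16, adjusted p = 0.00451). The difference was 0.61 between TB and TF mice under anti-IL-6R (95% interval 0.24 to 0.98, adjusted p = 0.465) and did not pass. The antibody differences were -0.018 in TB mice and 0.80 in TF mice, and the interaction was -0.82 ± 0.23 (adjusted p = 0.111), which did not pass either.

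Chil3 encodes Ym1, a chitinase-like secreted protein of macrophages that neutrophils and their precursors also make. Its levels were 1.63 and 1.38 in TB anti-IL-6R mice and 1.85 and 2.13 in TB control mice, against -0.69 and 0.17 in TF anti-IL-6R mice and -0.68 and -0.09 in TF control mice. All TB arrays were above all TF arrays, and within both TF groups the arrays were far apart. Chil3 had the largest tumour difference of the 10 genes, 5.21-fold in control mice (2.38 ± 0.28, adjusted p = 0.00506). Under anti-IL-6R it was 1.76 (95% interval 1.12 to 2.41, adjusted p = 0.0707), short of the threshold. Its paralog Chil4 was well above background on 1 array only and was not tested.

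The marks of other cells moved with Chil3 in control mice. Of 18 neutrophil and granulocyte precursor markers, 16 were measured, and 7 were higher in TB control than in TF control mice with none lower (median 1.52). Fcnb was well above background on no array and Cd177 on 1. Ltf (4.95), Camp (4.31) and Mpo (3.12), which are granule proteins, were among the 7, as were Ngp and Ctsg. Ltf was well above background on 7 arrays, Mpo on at most 6, and Ngp and Ctsg on 4 each. The means of Ltf and Mpo in TF control mice were -3.45 and -3.32, near background, so the sizes of such differences are not exact. The summed level of these markers was 7.39 on both TB anti-IL-6R arrays and 7.79 to 7.82 in TB control mice, against 7.16 to 8.07 in TF anti-IL-6R mice and 7.23 to 7.57 in TF control mice. In TB mice 7 of the 16 were lower with anti-IL-6R than with the control antibody (median of the 16 -1.49). Chil3 differed there by -0.48 (95% interval -1.13 to 0.16, adjusted p = 0.305). Between TB and TF mice under anti-IL-6R, 13 of these 16 markers lay below 0 (median -0.24), while Chil3 lay above 0 at 1.76. In that comparison limma called few probes of any kind, with 0 of the 16 markers and without Chil3. At an unadjusted p under 0.05 there were 3 of the markers, beside 2384 of all 32039 tested probes. Ctsg (1.00) and Mpo (0.56) lay above 0 and Ngp (-1.06) below. All 3 rest on signals near background. The mean of Ngp was -4.71 in TB anti-IL-6R mice, and those of Ctsg and Mpo were -4.37 and -3.97 in TF anti-IL-6R mice. The part of neutrophil RNA in the Chil3 values was not tested.

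Lyz2 encodes lysozyme M, which cuts bacterial cell walls and is made by macrophages, monocytes and neutrophils. Its brightest probe stood at 7.25 and 6.95 in TB anti-IL-6R mice and at 6.81 and 6.74 in TB control mice, against 6.43 and 6.43 in TF anti-IL-6R mice and 6.35 and 6.42 in TF control mice. The groups did not overlap by host, but the differences were small. They were 0.39 in control mice (95% interval 0.17 to 0.62, adjusted p = 0.0601) and 0.67 under anti-IL-6R (0.44 to 0.89, adjusted p = 0.0537), and neither passed. The second probe passed under anti-IL-6R (0.83, adjusted p = 0.0494), so the probes fell on either side of the threshold. The paralog Lyz1 gave 0.41 (adjusted p = 0.0597) and 0.65 (adjusted p = 0.0687).

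Folr2 encodes a folate receptor of tissue macrophages, and its signal was near background in TF mice. Its levels were -1.89 and -1.98 in TB anti-IL-6R mice and -2.61 and -2.72 in TB control mice, against -3.86 and -3.31 in TF anti-IL-6R mice and -3.57 and -3.13 in TF control mice. The value of -3.86, on replicate 5, was not well above background, so the size of a difference from that group is not exact. TB arrays were again above TF arrays, with a gap of 0.41. The difference was 0.69 in control mice (95% interval 0.13 to 1.25, adjusted p = 0.135) and 1.65 under anti-IL-6R (1.09 to 2.21, adjusted p = 0.0542), and neither passed.

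Thus for 5 of the 10 genes all 4 TB arrays were above all 4 TF arrays, where 2.58% of all tested probes had this order and 1.78% the opposite order. None of the 10 had the opposite order. The 5 genes share their samples, so they are not 5 independent observations.

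**Figure D2:**
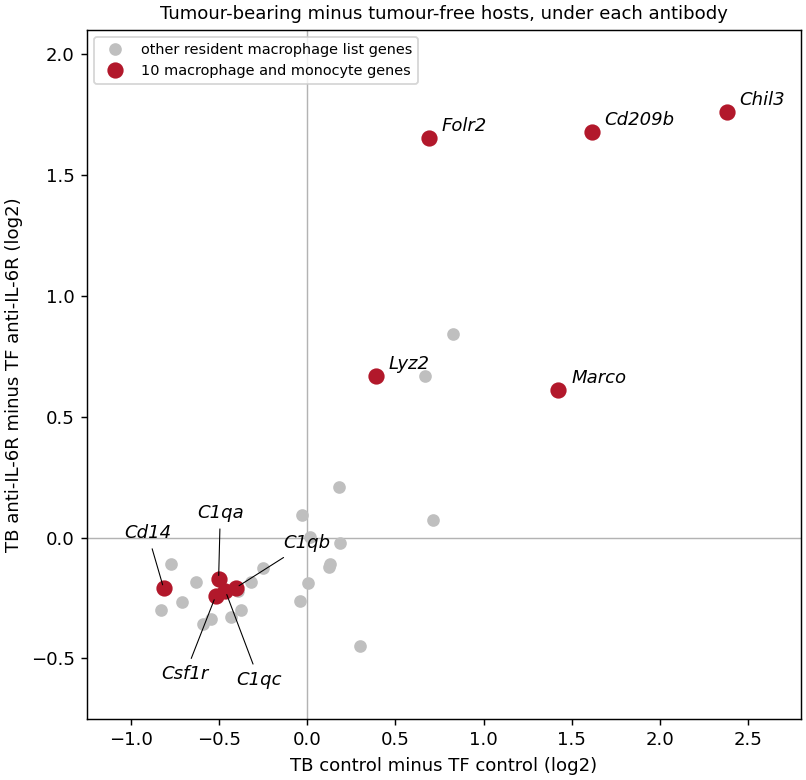
Log2 difference between TB and TF mice with the control antibody (x axis) and with anti-IL-6R (y axis), 1 point per gene, for the 10 genes (red, named) and the other measured genes of the resident macrophage list (grey). The axes come from separate arrays. Cd209b, Chil3, Folr2, Marco and Lyz2 lie in the upper right, and Cd14, Csf1r, C1qa, C1qb and C1qc lie together at -0.82 to -0.41 on the x axis and -0.24 to -0.17 on the y axis.

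The other 5 genes, the C1q chains, Csf1r and Cd14, were not called between TB and TF mice with either antibody. C1qa, C1qb and C1qc encode the chains of complement C1q, and the genes lie side by side within 18.7 kb on chromosome 4 (GRCm38.p6). C1qa stood at 3.13 and 3.05 in TB anti-IL-6R mice and at 2.96 and 1.94 in TB control mice, against 2.99 and 3.53 in TF anti-IL-6R mice and 2.88 and 3.02 in TF control mice. TB control replicate 4 was far below the other arrays, and TF anti-IL-6R replicate 6 was the highest, apart from the remaining 6. C1qb had the same shape, with 2.78 and 2.70 in TB anti-IL-6R mice and 2.70 and 1.74 in TB control mice, against 2.64 and 3.25 in TF anti-IL-6R mice and 2.54 and 2.71 in TF control mice. C1qc gave 3.99 and 3.95 in TB anti-IL-6R mice and 3.99 and 2.83 in TB control mice, against 3.95 and 4.43 in TF anti-IL-6R mice and 3.86 and 3.89 in TF control mice. The 3 differences between TB and TF control mice were -0.50, -0.41 and -0.46, with 95% intervals that reach from -1.19 to 0.27 and adjusted p of 0.346 to 0.455. Without replicate 4 they were 0.00495, 0.079 and 0.12. Without replicate 3, C1qc passed the threshold (-1.05, adjusted p = 0.0352). A second C1qc probe, made to another transcript, was well above background on no array.

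Csf1r encodes the receptor for colony stimulating factor 1, on which most macrophages depend. Its brightest probe stood at 5.91 and 5.70 in TB anti-IL-6R mice and at 5.60 and 4.63 in TB control mice, against 5.81 and 6.28 in TF anti-IL-6R mice and 5.55 and 5.72 in TF control mice. Replicate 4 was again the lowest array and replicate 6 the highest. The difference between TB and TF control mice was -0.52 (95% interval -1.16 to 0.12, adjusted p = 0.306), and it was -0.037 without replicate 4. The probes of Csf1r did not move alike. The second, which lies upstream on the plus strand, had r = 0.63 with the first over the 8 arrays, and its replicate 4 lay 0.025 above replicate 3, where the first probe's lay 0.97 below. For the other 3 genes with 2 tested probes, r between the probes was 0.983 to 0.995.

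Cd14 encodes the co-receptor that hands lipopolysaccharide to Toll-like receptor 4. It stood at 1.16 and 0.94 in TB anti-IL-6R mice and at 0.27 and -0.46 in TB control mice, against 0.97 and 1.55 in TF anti-IL-6R mice and 0.67 and 0.78 in TF control mice. Both TB control arrays were below the other 6. Cd14 was the only one of the 10 genes called between anti-IL-6R and the control antibody in TB mice, 2.21-fold higher (1.14 ± 0.25, adjusted p = 0.0466), where 1.51% of all tested probes were called higher and 2.77% lower. The second probe gave the same difference (1.14, adjusted p = 0.0554) and did not pass. The call was lost without any 1 of replicates 1, 2, 4, 7 and 8, and without replicate 4 the difference was 0.77 (adjusted p = 0.119, in a range of 0.0336 to 0.151 over the single arrays left out). It was also lost with quantile normalization (adjusted p = 0.0509), array weights (0.0503), no filter on dim probes (0.092) and no intensity trend (0.107). Markers of several other cell types moved in the same comparison. All 10 B cell markers lay above 0 (median 0.71) with Cr2, the complement receptor of B cells, called (0.92, adjusted p = 0.0369). Of 8 natural killer cell markers 3 were called higher, namely Klra8 (1.17), Klra4 (1.22) and Gzma (0.74). Klrb1c (-0.60) and Eomes (-0.31) of that list lay below 0 without a call. All 13 measured dendritic cell markers lay above 0 (median 0.32), with none called and 6 at an unadjusted p under 0.05. Neutrophil and erythroid markers went the other way, with 7 called lower in each list. Of the 12 CD4 T cell markers 11 lay below 0 (median -0.24), with none called and 7 at an unadjusted p under 0.05. Such a p was reached by 8661 of all 32039 tested probes. The summed level of the CD4 T cell markers was 9.55 to 9.72 in TB anti-IL-6R and 9.87 to 9.91 in TB control mice. The part of all these cell types in the Cd14 value was not tested. Against TF control mice, TB control mice differed by -0.82 (95% interval -1.39 to -0.24, adjusted p = 0.0989), and without replicate 3 this passed at -1.18 (adjusted p = 0.0499).

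**Figure D3:**
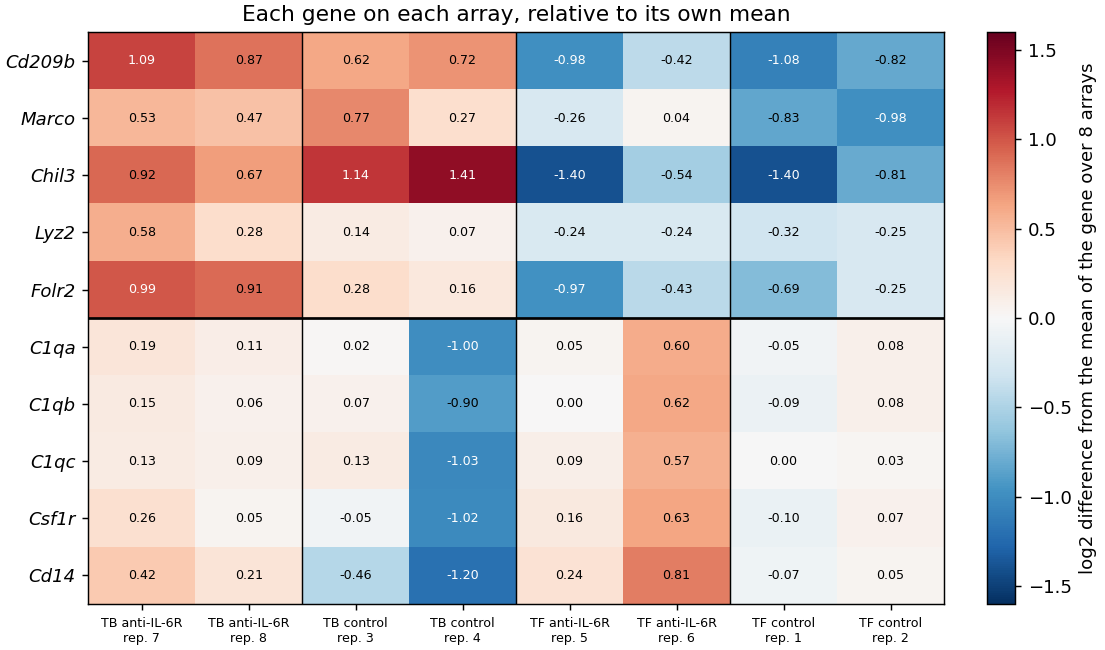
Each gene's level on each array minus its own mean over the 8 arrays (colour and printed value, log2), with arrays in columns by group and genes in rows. The upper 5 rows are high on the 4 TB arrays and low on the TF arrays. The lower 5 rows are within 0.46 of the mean on 6 arrays, low on TB control replicate 4 (-1.20 to -0.90) and high on TF anti-IL-6R replicate 6 (0.57 to 0.81).

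The 10 genes thus followed 2 patterns over the 8 arrays, which were seen after the values and are given as a description. Among Cd209b, Folr2, Marco, Chil3 and Lyz2, Pearson's r was 0.70 to 0.95 over the 10 pairs. Among Cd14, Csf1r, C1qa, C1qb and C1qc it was 0.90 to 0.99, and between the sets it was -0.49 to -0.03. Without replicate 4 the ranges were 0.70 to 0.97, 0.70 to 0.99 and -0.18 to 0.28. Signals of one array share its labelling and scan, so these arrays give at most 8 points. The C1qb signal relative to the C1qa signal varied by 0.15 over the arrays and that of Csf1r by 0.18, whereas that of Cd209b varied by 2.74 and that of Chil3 by 3.86.

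By the brightest probes, replicate 4 was the lowest array for the 5 genes of the second pattern. Its gap to replicate 3 was wider than for most of the array. Replicate 4 minus replicate 3 was -1.16 to -0.74 for the brightest probes of those 5 genes. Gaps as low were reached by 0.849% to 2.65% of all tested probes. The median over all tested probes was 0.051, slightly higher on replicate 4. Of the other 5 genes, Marco (-0.50), Folr2 (-0.11) and Lyz2 (-0.065) were lower on replicate 4 too by their brightest probes, and Cd209b (0.10) and Chil3 (0.27) were higher. The second Cd209b probe gave -0.0075. A gap as low as that of Marco was reached by 5.3% of all tested probes. All 23 measured genes of the resident macrophage list were lower on replicate 4 than on replicate 3, with a median gap of -0.91. All 12 erythroid markers (median -1.05) and all 10 B cell markers (median -0.49) were lower too, and the median of the CD4 T cell markers was 0.068. The part of other cell types in this gap was not tested.

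**Figure D4:**
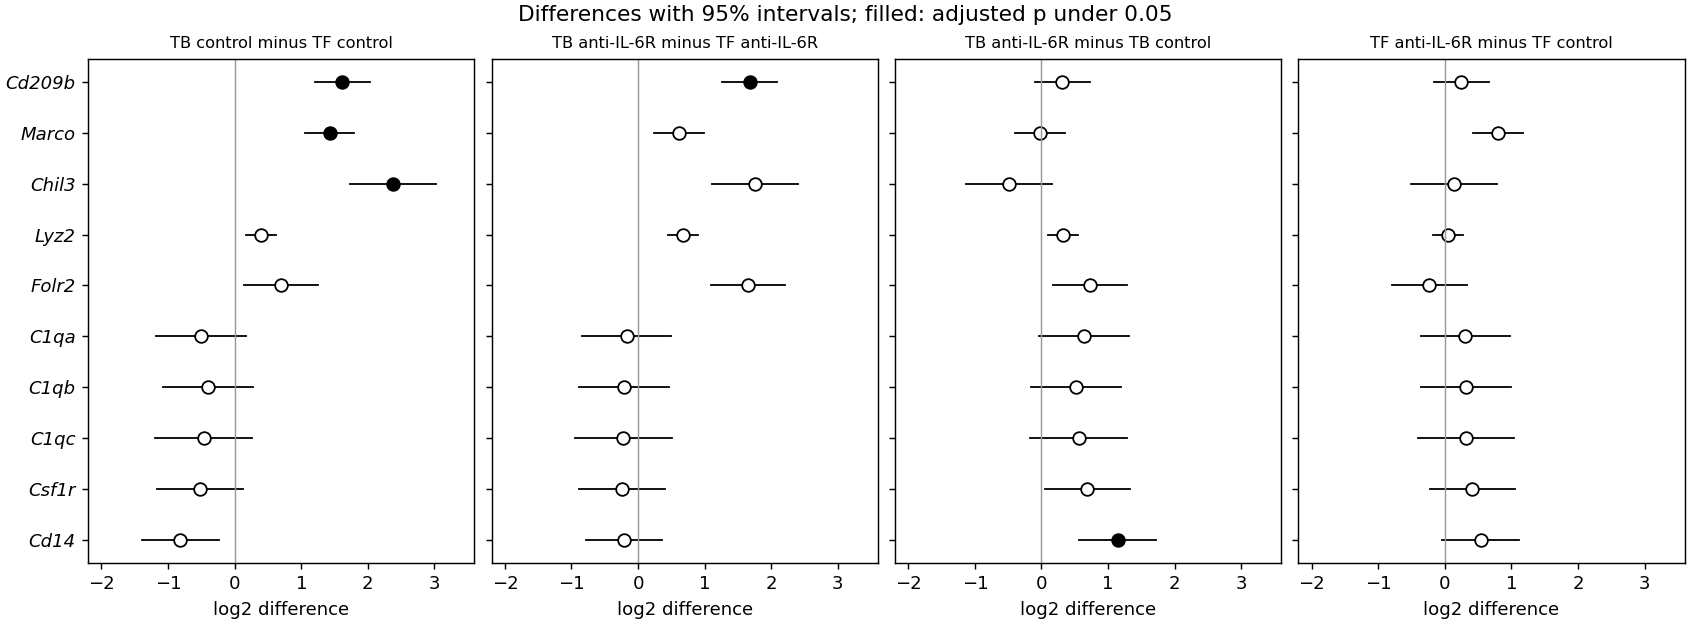
Log2 differences of the brightest probe of each gene (points) with 95% intervals (lines) in 4 comparisons, tested against the group named second; filled points passed an adjusted p of 0.05. Filled points stand at Cd209b, Marco and Chil3 in the first panel, Cd209b in the second and Cd14 in the third, and there is none in the fourth.

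The antibody comparisons gave little else. In TB mice, 8 of the 10 genes lay above 0 with anti-IL-6R against the control antibody, with a median of 0.54 beside -0.038 over all tested probes, and Cd14 passed alone. Folr2 (0.73, adjusted p = 0.103), Csf1r (0.69, adjusted p = 0.159), C1qa (0.64, adjusted p = 0.204) and Lyz2 (0.32, adjusted p = 0.0846) did not pass. Cd209b (0.31, 95% interval -0.10 to 0.72) and Marco (-0.018, -0.39 to 0.36) did not pass either. The TB control arrays stand in this comparison and in that with TF control mice, so the opposite signs of the C1q, Csf1r and Cd14 values in the pair rest on shared arrays. Without replicate 4, the antibody differences in TB mice were 0.21 for Csf1r, 0.13 for C1qa, 0.033 for C1qb and -0.022 for C1qc. That Csf1r value is from the brightest probe. The second Csf1r probe gave 0.62 on all 8 arrays (adjusted p = 0.0575), with its TB control arrays 0.025 apart, and did not pass.

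In TF mice limma called none of the 10 genes between anti-IL-6R and the control antibody, where 0.0312% of all tested probes were called. Marco alone of the 10 had an unadjusted p under 0.05 (0.00108, adjusted p = 0.291), beside 2570 of all 32039 tested probes. Both of its anti-IL-6R arrays were above both control arrays, as were those of Cd14, Csf1r, C1qc and Lyz2 by their brightest probes. The members other than Marco differed by -0.23 to 0.54. No alternative setting called a member here. The test of the difference between the antibody effects in TB and TF mice called 0 of the 10 genes too. Of all tested probes 0.025% passed. At an unadjusted p under 0.05 were 2 of the 10 genes, Marco and Folr2 (0.96, adjusted p = 0.153). That level was reached by 7580 of all 32039 tested probes.

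Genes around the 10 were read from lists. Of the 26 genes of the resident and marginal zone macrophage list, 23 were measured and limma called none in any of the 4 comparisons. Between TB and TF control mice 3 had an unadjusted p under 0.05 (median difference -0.044), beside 7624 of all 32039 tested probes. Between the antibodies in TB mice there were 2 (median 0.37), beside 8661 of all tested probes. A few of the list genes, picked after their values were seen, show how they lay beside Cd209b and C1q. Siglec1, the sialic acid receptor CD169 of sinus and metallophilic macrophages, differed between TB and TF mice by 0.83 with the control antibody (adjusted p = 0.0771) and 0.84 with anti-IL-6R (adjusted p = 0.486). Timd4, a receptor for dying cells, gave 0.67 (adjusted p = 0.0597) and 0.67 (adjusted p = 0.379). Adgre1, which encodes the macrophage mark F4/80, gave -0.54 and -0.34, and the haemoglobin receptor Cd163 gave -0.83 and -0.30, none of which passed. List genes given below without a call were likewise picked after their values were seen.

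Of 18 measured monocyte genes, Ccr2 (1.47, adjusted p = 0.0024) and Ly6c2 (0.50, adjusted p = 0.0167) were higher in TB control than in TF control mice and none was lower. Ccr2 is the chemokine receptor that lets monocytes leave the marrow, and activated T cells carry both genes' products as well. In TB mice Ccr2 was lower (-0.96, adjusted p = 0.0269) and Nr4a1, a nuclear receptor of patrolling monocytes that antigen receptors also induce, was higher (0.76, adjusted p = 0.048) with anti-IL-6R. Of 20 genes shared by mononuclear phagocytes, the lectin gene Lgals3 was higher in TB control mice (0.74, adjusted p = 0.0186), and Fcgr2b, the inhibitory Fc receptor that B cells also carry, was higher with anti-IL-6R in TB mice (0.95, adjusted p = 0.0304). Spi1, which encodes the myeloid factor PU.1, gave -0.027 (adjusted p = 0.947) between TB and TF control mice.

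Partners of C1q, Csf1r and Cd14 came from further lists. Of 18 complement genes 13 were measured, and C3 (0.89, adjusted p = 0.00748) and Cfb (1.21, adjusted p = 0.00283), which encode the central component and factor B of the alternative pathway, were higher in TB control than in TF control mice. C1ra, a protease that binds C1q, gave -0.65 (adjusted p = 0.186). In the CSF1 receptor list, with 13 of 14 genes measured, the ligand gene Csf1 (1.25, adjusted p = 0.00169) and the myeloid factor Cebpa (1.57, adjusted p = 0.000975) were higher in TB control mice. Cebpa was also higher in TB than in TF mice under anti-IL-6R (0.96, adjusted p = 0.033), the only one of the 13. In the lipopolysaccharide list, with 14 of 15 measured, Lbp, the binding protein that loads CD14, was lower in TB control mice (-1.98, adjusted p = 0.0446), and Tlr4 gave 0.036 (adjusted p = 0.87).

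None of the 5 tested paralogs of Cd209b was called higher in TB control than in TF control mice. Of the 17 measured lectin genes, Cd209f (-1.68, adjusted p = 0.00716) and Clec4a2 (-1.15, adjusted p = 0.0315) were lower in TB control than in TF control mice, and Clec10a, a galactose-binding lectin of macrophages and dendritic cells, was higher (1.52, adjusted p = 0.0341). Clec4g, a lectin of sinus endothelium, was higher with anti-IL-6R in TB mice (1.09, adjusted p = 0.0392). Cd209a gave -0.21, Cd209d 0.56, Cd209e -0.33 and Cd209g -0.25, none of which passed, and Cd209c was well above background on 1 array. Of the 12 chitinase-like and alternative activation genes 8 were measured, and Socs2, a cytokine-induced inhibitor of signalling, was higher in TB control than in TF control mice (0.65, adjusted p = 0.0131). Arg1 and Retnla, the classic marks of alternatively activated mouse macrophages, were well above background on no array, and Chil1, well above background on 5 arrays, gave 1.87 (adjusted p = 0.079). In the list of lysozyme and folate genes, Izumo1r, which encodes the folate receptor 4 of T cells, was higher in TB control than in TF control mice (0.69, adjusted p = 0.0165) and lower with anti-IL-6R in TB mice (-0.67, adjusted p = 0.0294).

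Marks of further cell types moved between the same groups. Of 12 erythroid markers 10 were higher in TB control than in TF control mice (median 1.88) and 7 were lower with anti-IL-6R in TB mice. Their summed level was 9.33 to 9.66 in TB anti-IL-6R mice and 9.36 to 10.08 in TB control mice, against 9.39 to 9.66 in TF anti-IL-6R mice and 7.90 to 8.89 in TF control mice. Most of this summed signal came from the probes of the globin genes Hba-a1 and Hbb-bt. Of 8 plasma cell markers 5 were higher in TB control mice (median 1.41) and of 10 B cell markers 5 were lower (median -0.87). Of 8 natural killer cell markers 1 was higher and 3 were lower, and of the 12 CD4 T cell markers Cd5 was higher (0.39, adjusted p = 0.0399). No dendritic cell marker was called in limma among 13 measured, with 2 at an unadjusted p under 0.05, beside 7624 of all 32039 tested probes. What part these cells had in the values of the 10 genes was not tested.

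The genes whose brightest probe was most like each member over the 8 arrays, by Pearson's r among 2279 genes with a range of at least 1, differed between the patterns. For Cd209b they included Ccl8 (r = 0.995) and Miat (0.98). For Marco they were Pon3 (0.98), C3 (0.97) and Serpinf1 (0.96), and for Chil3 Gzmb (0.99), Mzb1 (0.98) and Oosp1 (0.98). For Folr2 they were Tppp3 (0.97), Ccl2 (0.97) and Cxcl13 (0.95), and for Lyz2 Atf7 (0.97), Ang4 (0.97) and Stfa3 (0.97). In the second pattern, C1qa and C1qb had Slc11a1 first (0.998 with C1qa and 0.997 with C1qb), Csf1r had Trpm2 and Pilra (0.99 each), C1qc had Fcgrt (0.996) and Cd14 had Adamdec1 (0.994). With 8 arrays in 4 groups, such values are high for many genes, and they say nothing of shared function.

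Promoters of 7 of the 10 genes were matched in RefSeq (GRCm38.p6), in 8 windows of 250 bases before to 50 after the start, and were searched on both strands for GAGGAAG, a core that PU.1 binds, and for TGCTGAC, a site of large Maf factors. These 2 motifs do not overlap. GAGGAAG was in 2 of the 8 windows, C1qc and Marco, and in 13.6% of all 32851 promoters. TGCTGAC was in none of the 8 and in 4.67% of all. The 2 windows with a match are shown because they belong to genes of different patterns, with the match in capitals, in the direction of the gene. Marco lies at chr1:120504975-120505274 and C1qc at chr4:136892865-136893164, both on the minus strand.
Marco: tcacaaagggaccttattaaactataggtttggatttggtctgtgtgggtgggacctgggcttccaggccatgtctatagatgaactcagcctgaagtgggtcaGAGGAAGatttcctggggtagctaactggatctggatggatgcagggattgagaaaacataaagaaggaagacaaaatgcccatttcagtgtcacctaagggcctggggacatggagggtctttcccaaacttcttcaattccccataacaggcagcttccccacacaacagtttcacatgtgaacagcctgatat
C1qc: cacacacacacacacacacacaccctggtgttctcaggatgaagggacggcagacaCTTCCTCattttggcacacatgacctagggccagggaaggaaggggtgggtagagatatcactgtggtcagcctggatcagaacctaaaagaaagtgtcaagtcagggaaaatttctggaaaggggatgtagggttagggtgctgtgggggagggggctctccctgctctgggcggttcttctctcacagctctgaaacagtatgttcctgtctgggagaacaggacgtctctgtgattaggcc
The Marco match begins 146 bases before the start and reads in the gene's direction, and the C1qc match begins 194 bases before the start and is on the opposite strand. A match of these letters is not evidence of binding, and C1qb, which moved with C1qc (r of 0.987 to 0.994 among the C1q genes over 8 arrays), had none in its window.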

How the data were processed

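One-colour arrays were read for 8 samples of CD4+ T cells, labelled with cyanine-3 from 0.1 µg of RNA. The deposited scanner files hold the intensity of each spot. The submitters' processing notes name Agilent Feature Extraction 10.10.1.1 as the software, and its signals were background-subtracted, per the file headers. The deposited value table holds log2 values that equalled the log2 signal minus the array's 75th percentile (r = 1), and it served as an alternative. How it was made is not stated in these sources.

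Spots flagged as outliers (60 to 95 per array) were dropped, spots of a probe were averaged, and log2 signals were scaled by each array's 75th percentile over probes (500 to 526). A probe was tested where every array of 1 group or more had its signal flagged as well above background (32039 of 56587). The 4 group means were fitted over all 8 arrays in limma 3.58.1 (R 4.3.3, 4 residual degrees of freedom, intensity trend), with two-sided p-values adjusted over all tested probes by the Benjamini-Hochberg method at 0.05. Errors are standard errors and intervals are 95%. A gene is represented by its probe with the highest mean. Data for TB control against TF control over 32039 probes were simulated in 1 run. Of 100 changes of 1 (log2) 67 were recovered, and of 100 changes of 2 (log2) 96 were. In the same run 24 unchanged probes were called as well, so the share of false calls was above the threshold of 0.05. The number of arrays limits the precision. Alternatives were quantile normalization, normexp background, other filters, 1 probe per gene, no trend, array weights, the deposited table and leaving out each array.

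The members and lists were chosen with earlier results of these data known. Every member and probe is accounted for, list genes were named among the 3 smallest p past the threshold per list, or as stated where chosen after their values were seen, and the most alike genes by correlation, of which 1 is not reported here. Files were read with pandas 2.3.3 in Python 3.11.15, and plots were drawn with matplotlib 3.10.9.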

Additional observations from a re-analysis of the deposited data

How the results depend on the processing

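The count of 3 genes higher in TB control than in TF control mice was 3 to 4 under all alternatives, and Cd209b, Marco and Chil3 passed with each single array left out. Leaving out single arrays gave 0 to 2 lower genes there, 0 to 3 called genes between the antibodies in TB mice and 0 to 3 between TB and TF mice under anti-IL-6R. The count between the antibodies in TB mice was 0 with quantile normalization, no filter, no intensity trend or array weights, and 2 with normexp. The count under anti-IL-6R between hosts was 2 with quantile normalization or normexp (Cd209b and Lyz2 in both), 0 with no filter or no trend, and 3 with 1 probe per gene or array weights (with Folr2). The cause was not tested. Over all probes, 1696 were called between TB and TF control mice, against 683 with no filter, 724 with no trend and 905 with array weights, and between the antibodies in TB mice 1372, against 15, 56 and 1326, and 2072 with normexp. With single arrays left out these counts were 728 to 2252 and 329 to 2126. The share of higher calls was 64.3% and 35.3%, and it was 37.6% to 80.4% and 22.2% (without replicate 4) to 91.2% (without replicate 8) with single arrays left out.

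Differences near 0 that changed sign with another scaling or background were Marco between the antibodies in TB mice (0.092, quantile), and in TF mice Lyz2 (-0.011, quantile) and Folr2 (0.022, normexp). With single arrays left out, C1qa, C1qb and C1qc ranged from -1.01 to 0.00495, -0.89 to 0.079 and -1.05 to 0.12 between TB and TF control mice. Between the antibodies in TB mice C1qc ranged from -0.022 to 1.14 and Marco from -0.27 to 0.23. In TF mice Cd209b ranged from -0.031 to 0.53, Folr2 from -0.50 to 0.042 and Chil3 from -0.30 to 0.56. Between hosts under anti-IL-6R, Cd14 ranged from -0.50 to 0.079, C1qa from -0.45 to 0.10, C1qb from -0.52 to 0.10 and C1qc from -0.46 to 0.019. For the interaction, Cd209b ranged from -0.22 to 0.34, Csf1r from -0.21 to 0.76, C1qa from -0.18 to 0.84, C1qb from -0.29 to 0.68 and C1qc from -0.34 to 0.82. A lone array left in a group is assumed to vary like the other groups.

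No paired analysis was possible because replicate numbers 1 to 8 are each used once. Among the brightest probes, only that of Folr2 was near background. The second Cd209b probe was similarly dim in TF mice.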
